A study of Mus musculus with 6 samples.

Results

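The genes of TGF-beta signalling examined here are 3 ligands (*Tgfb1*, *Tgfb2*, *Tgfb3*), the latent binding protein *Ltbp1*, 3 signalling receptors (*Tgfbr1*, *Tgfbr2*, *Acvrl1*) and 2 coreceptors (*Tgfbr3*, *Eng*). They were chosen by name, as those rows of the deposited gene table whose Ensembl identifier belongs to 1 of these symbols, and all 9 were found among the 28777 genes listed and passed the filter on low counts. The lowest count of any of them in a library was 468 reads. The table comes from bulk RNA-Seq of the mouse cardiac outflow tract (OFT) at E13.5, with 6 libraries. Of these, 3 carry the genotype label *Notch1*+/-; *Nos3*-/- (called mutant) and 3 the label wildtype. Both alleles are germline knockouts kept on a C57/BL6J background, 1 copy of *Notch1* and both copies of *Nos3* being disrupted in the mutants, and the wildtype embryos were littermates from the same kind of mating. Each library pools 3 OFTs, so that variation between single embryos, which the study describes as considerable in this model, cannot be seen. The labels give no sex of the embryos.

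TGF-beta ligands are secreted in a latent complex, bound through their propeptide to a latent binding protein such as *Ltbp1* that anchors them in the extracellular matrix, and they have to be released before they can act. The active ligand assembles the type II receptor *Tgfbr2* with a type I receptor, *Tgfbr1* in most cells or *Acvrl1* (ALK1) in endothelium, and the type I receptor phosphorylates Smad proteins. *Tgfbr3* (betaglycan), which presents *Tgfb2* in particular, and *Eng* (endoglin), found mostly on endothelium, are coreceptors that carry no kinase activity. In the OFT the pathway is known for its part in the change of endocardial cells into cushion mesenchyme, from which the semilunar valves are built, and in the smooth muscle of the great arteries.

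The libraries held between 34729103 and 44387490 counts. Levels below are given as CPM, read counts brought to the same library size by the TMM method, and all fold changes are log2 values of the mutant-labelled over the wildtype-labelled libraries. *Notch1* had 74.3, 88.2 and 83.6 CPM in wildtype replicates 1, 2 and 3 and 155, 161 and 139 CPM in mutant replicates 1, 2 and 3, which is higher under the label of its heterozygous knockout (log2 fold change 0.89, adjusted p = 0.0313, edgeR). *Nos3* had 31.8, 47.2 and 48.1 CPM under the wildtype label and 22.1, 22.0 and 20.4 CPM under the mutant label (log2 fold change -0.98, adjusted p = 0.128, edgeR). The check of the targeted genes therefore goes against the mutant label for *Notch1*. For *Nos3* it goes with that label, without overlap of the libraries though not called. Every direction given here is that of the labels. *Eng* lies on the same chromosome as *Notch1*, 6.13 Mb away. The library numbers of wildtype replicates 2 and 3 are opposite in the titles and descriptions of the samples, and the titles were followed. Wildtype replicate 1 stood apart from the other wildtype libraries in a list of 10 mesenchymal markers (such as *Postn*, *Col1a1* and *Sox9*), with a mean of 8.41 log2 CPM against 7.77 and 7.28 in wildtype replicates 2 and 3 and 8.59, 8.62 and 8.30 in mutant replicates 1, 2 and 3. All markers of the 3 OFT cell types used below, myocardial, endothelial and mesenchymal, were detected. Wildtype replicate 3 was highest in the 10 myocardial markers, with a mean of 11.1 log2 CPM against 10.4 and 10.6 in wildtype replicates 1 and 2 and 9.68 to 10.6 under the mutant label. Among 8 smooth muscle markers *Tagln* had the lowest mean, 2.56 CPM. The tissue is mixed, so that fewer cells of a type and less RNA per cell cannot be told apart in any value below.

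The promoters of 6 of the 9 genes were matched in the RefSeq table of the GRCm38.p6 build (*Eng*, *Ltbp1*, *Tgfb1*, *Tgfb2*, *Tgfbr1* and *Tgfbr2*, with 8 windows in all because *Ltbp1* and *Tgfbr1* have a pair each). Of these, 4 are shown, since *Tgfb2* and *Ltbp1* varied together between the libraries while *Tgfb1* hardly varied. Each is the stretch of 250 bases before the transcription start of that table, 5′ to 3′ on the strand of the gene. For 6 of the 8 windows, bases shortly after this start were found in an annotated transcript of the gene. The upstream *Ltbp1* window ends at 75005528, before the gene start of 75005568 used below. Capitals mark matches on either strand to CAGACA, letters of a Smad binding motif, and to TATAAA, those of a TATA box.
Tgfb1, chr7:25686752-25687001, plus strand: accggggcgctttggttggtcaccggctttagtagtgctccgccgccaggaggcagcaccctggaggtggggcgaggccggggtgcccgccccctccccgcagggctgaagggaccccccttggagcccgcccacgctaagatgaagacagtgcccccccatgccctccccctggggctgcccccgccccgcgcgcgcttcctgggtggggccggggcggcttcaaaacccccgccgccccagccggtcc
Tgfb2, chr1:186705990-186706239, minus strand: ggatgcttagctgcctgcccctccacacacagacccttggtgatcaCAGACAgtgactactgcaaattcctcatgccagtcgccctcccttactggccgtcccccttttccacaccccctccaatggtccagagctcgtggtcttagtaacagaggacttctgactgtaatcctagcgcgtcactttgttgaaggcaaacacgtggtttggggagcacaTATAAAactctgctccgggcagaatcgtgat
Ltbp1 upstream start, chr17:75005279-75005528, plus strand: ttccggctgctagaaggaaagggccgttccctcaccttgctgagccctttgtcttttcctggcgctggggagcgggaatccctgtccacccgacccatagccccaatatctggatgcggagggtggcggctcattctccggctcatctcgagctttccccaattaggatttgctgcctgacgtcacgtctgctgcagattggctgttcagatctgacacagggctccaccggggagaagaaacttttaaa
Ltbp1 downstream start, chr17:75178531-75178780, plus strand: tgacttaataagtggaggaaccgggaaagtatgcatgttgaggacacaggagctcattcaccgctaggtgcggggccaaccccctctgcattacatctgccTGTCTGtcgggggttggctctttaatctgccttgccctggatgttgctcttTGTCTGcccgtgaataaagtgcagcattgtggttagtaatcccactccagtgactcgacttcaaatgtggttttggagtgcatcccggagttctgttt

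The *Tgfb1* window had a GC content of 75.2% and held neither motif, whereas the *Tgfb2* window had 53.6% and held 1 match to each, with TATAAA beginning 31 bases before the start. The median over 32851 promoter windows was 52.4%. The downstream window of *Ltbp1* held 2 matches to CAGACA, the upstream window held 0, and 1 further match lay in the second window of *Tgfbr1*. Of all windows of this length, 17.1% held CAGACA, and TATAAA was held by 12.4%. The core letters bound by the Notch partner RBPJ, TGGGAA, were searched on both strands as well and matched in 0 of the 8 windows, against 21.6% of all windows. Of the *Tgfb2* window, 167 bases also lie in an exon of *Gm29491*, a gene on the opposite strand.

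Per unit of exon length, *Eng* had the highest level of the 9 genes and *Acvrl1* the lowest in the wildtype-labelled libraries. *Eng* was at 49.9 ± 9.08 RPKM (the CPM per kilobase of exon, SD, n = 3), followed by *Ltbp1* at 28.4 ± 8.81 RPKM and *Tgfb2* at 19.4 ± 8.52 RPKM. *Tgfbr1* had 15.0 ± 2.39 RPKM, *Tgfb3* 11.1 ± 4.14 RPKM and *Tgfbr2* 8.33 ± 0.520 RPKM. *Tgfbr3* had 5.80 ± 2.50 RPKM, *Tgfb1* 4.99 ± 0.0448 RPKM and *Acvrl1* 3.02 ± 0.381 RPKM. The ranges of the 3 libraries overlapped for every pair of neighbours in this order except *Eng* and *Ltbp1*, and *Tgfb1* and *Acvrl1*. Even for the first of these pairs the lowest *Eng* value (39.7 RPKM) and the highest *Ltbp1* value (38.6 RPKM), both from wildtype replicate 1, were close. In the mutant-labelled libraries the first 6 places were the same, and *Tgfbr3*, at 3.11 ± 1.14 RPKM (SD, n = 3), came last instead of seventh.

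**Figure D1:**
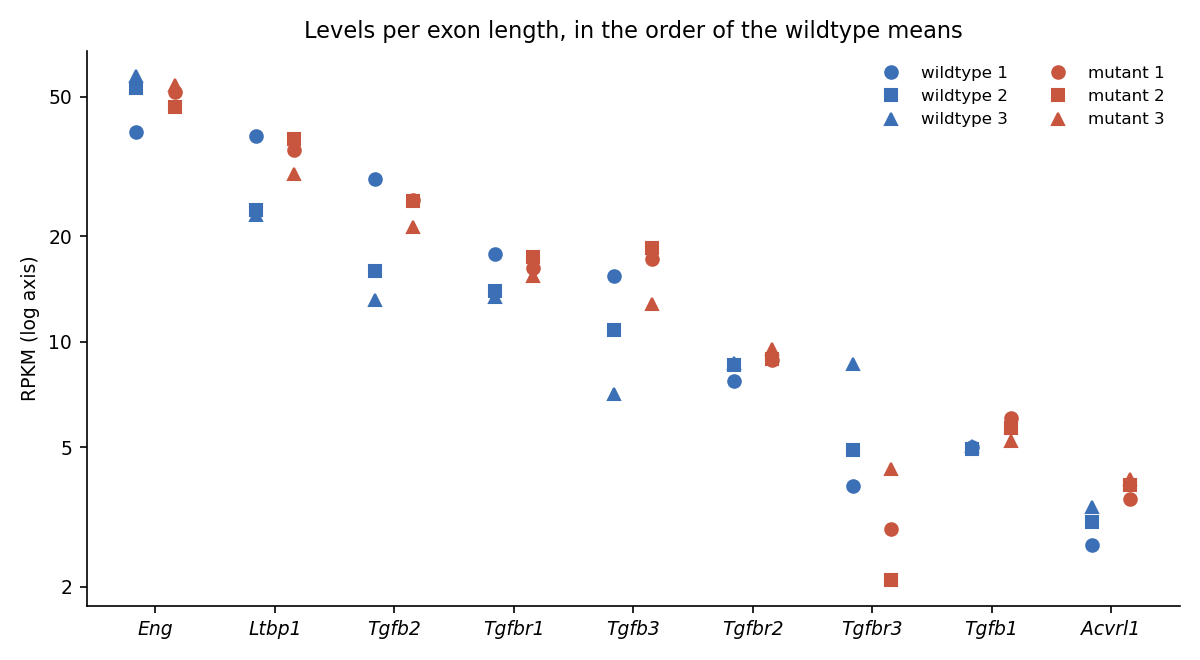
Levels of the 9 genes per exon length (vertical axis, RPKM on a log scale) in the 3 wildtype-labelled libraries (blue) and the 3 mutant-labelled libraries (red), 1 point a library, ordered by the wildtype mean. *Eng* is at the top, and *Tgfbr3* has the widest spread and drops from seventh to last place under the mutant label.

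*Tgfb2* was the leading ligand transcript. Of the summed level of the 3 ligands per exon length it made up 58.8%, 50.2% and 52.1% in wildtype replicates 1, 2 and 3 and 52.1%, 51.0% and 54.1% in mutant replicates 1, 2 and 3. *Tgfb3* made up 31.1% ± 3.11 (SD, n = 3) under the wildtype label and 35.2% ± 2.43 (SD, n = 3) under the mutant label, and *Tgfb1* 15.2% ± 4.88 and 12.4% ± 0.876. Among the signalling receptors *Tgfbr1* made up 56.8% ± 5.65 of the summed level under the wildtype label and 55.9% ± 2.39 under the mutant label (SD, n = 3 each), *Tgfbr2* 31.7% ± 3.67 and 31.1% ± 1.74, and *Acvrl1* 11.5% ± 2.02 and 13.1% ± 0.796. For each of the 6 genes the wildtype and mutant ranges of these shares overlapped, so a shift in the makeup of ligands or receptors was not detectable with 3 libraries a group. The summed ligand level varied more between libraries than that of the receptors, from 25.3 to 49.4 RPKM against 25.4 to 30.2 RPKM.

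The question for each gene was whether its level differed between the labels by more than the libraries of 1 label differ from each other. Of the 9 genes, 8 had a positive and 1 a negative log2 fold change (7 and 2 after a correction for GC content and length, which turned *Eng*), and their median log2 fold change was 0.17, that of all genes tested being 0.011. At the threshold for a call there was none (0 of 9 at an adjusted p of at most 0.05, edgeR's quasi-likelihood test, and 0 of 9 with DESeq2), a threshold that 6 of 28157 genes (0.0213%) passed with edgeR and 2.66% with DESeq2. An unadjusted p under 0.05 was reached by 3 of the 9 (*Tgfb3* and *Acvrl1* higher, *Tgfbr3* lower), against 16.1% of all genes (8.23% higher, 7.83% lower). After the GC and length correction only *Tgfbr3* reached it, and the log2 fold changes of *Tgfb1* and *Tgfbr2* were 0.099 and 0.045. The share of all genes reaching it was not taken after that correction. The labels did not overlap in 3 of the 9 (*Tgfb1*, *Tgfbr2* and *Acvrl1*, all higher under the mutant label), against 19.6% of all genes, or 10.7% in that direction. For these 3 the two-sided exact permutation test gave p = 0.1, the smallest value that 3 libraries against 3 allow.

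**Figure D2:**
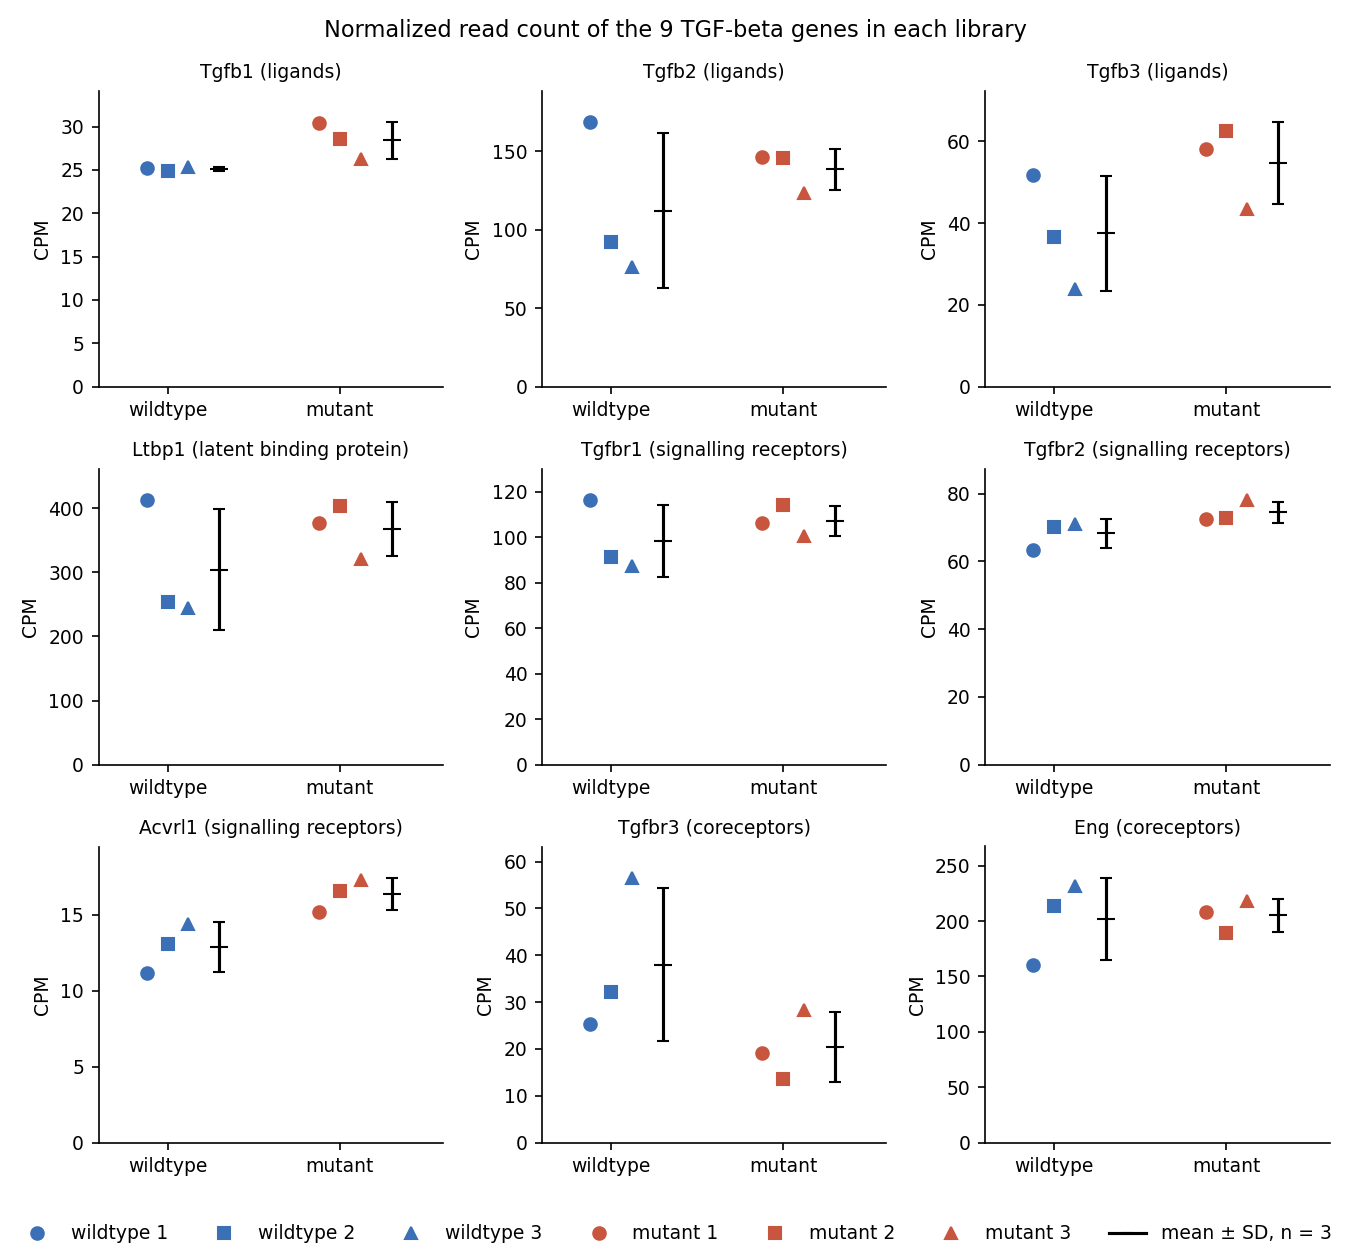
Normalized read count (vertical axis, CPM from 0, 1 panel a gene) of the 9 genes in each library, with the wildtype label in blue, the mutant label in red and 1 symbol for each replicate number, and black bars for the mean ± SD of the 3 libraries. Wildtype replicate 1 (blue circle) lies with the mutant-labelled libraries for *Tgfb2*, *Ltbp1* and *Tgfbr1*, and the labels do not overlap for *Tgfb1*, *Tgfbr2* and *Acvrl1*.

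The ligands *Tgfb2* and *Tgfb3* had higher means under the mutant label but a wide spread under the wildtype label, and *Tgfb1* was nearly constant. *Tgfb2* (ENSMUSG00000039239, mm10 chromosome 1 from 186622792 to 186705989, minus strand) had 168, 91.9 and 76.3 CPM in wildtype replicates 1, 2 and 3 and 146, 146 and 123 CPM in mutant replicates 1, 2 and 3. Its highest value was thus in a wildtype-labelled library and its lowest 2 in the others of that label. Between the labels *Tgfb2* differed by a log2 fold change of 0.30 (SE 0.24, 95% interval -0.22 to 0.83, adjusted p = 0.56, edgeR). *Tgfb3* (ENSMUSG00000021253, chromosome 12 from 86056745 to 86079041, minus strand) had 51.9, 36.6 and 23.9 CPM under the wildtype label and 58.2, 62.5 and 43.4 CPM under the mutant label. Only mutant replicate 3 fell within the wildtype range. The log2 fold change of *Tgfb3* was 0.54 (SE 0.23, interval 0.027 to 1.06, unadjusted p = 0.041, adjusted p = 0.294, edgeR), a ratio of 1.46. Exons of 2 genes on the opposite strand, *Gm37804* and *Gm48008*, share 12.4% of its exon bases, and since the sources used here do not say whether counting used the strand, reads there cannot be told apart.

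*Tgfb1* (ENSMUSG00000002603, chromosome 7 from 25687002 to 25705077, plus strand) had 25.3, 24.9 and 25.3 CPM under the wildtype label, a coefficient of variation of 0.897%. It had 30.4, 28.5 and 26.2 CPM under the mutant label, all above the wildtype-labelled libraries. The wildtype values come from 1123, 1034 and 822 reads, at which counting error alone is wider than their spread. The narrow gap below 26.2 CPM is therefore uncertain. The log2 fold change of *Tgfb1* was 0.17 (SE 0.097, interval -0.040 to 0.39, adjusted p = 0.398, edgeR), so a ratio above 1.31 or below 0.973 was outside the interval.

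*Ltbp1* (ENSMUSG00000001870, chromosome 17 from 75005568 to 75392512, plus strand) had the library pattern of *Tgfb2*. Its values were 412, 254 and 245 CPM under the wildtype label and 377, 404 and 321 CPM under the mutant label. As for *Tgfb2*, wildtype replicate 1 was highest of all 6 libraries and the other wildtype-labelled libraries were lowest. For *Ltbp1* the log2 fold change was 0.27 (SE 0.19, interval -0.14 to 0.69, adjusted p = 0.492, edgeR), and 0.16 after the GC and length correction.

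The signalling receptors varied less between libraries than the ligands *Tgfb2* and *Tgfb3*, the highest value being at most 1.54 times the lowest over the 6 libraries, against 2.21 for *Tgfb2* and 2.61 for *Tgfb3*. *Tgfbr1* (ENSMUSG00000007613, chromosome 4 from 47353222 to 47414931, plus strand), the type I receptor of most cells, had 116, 91.2 and 87.4 CPM under the wildtype label and 106, 114 and 101 CPM under the mutant label. Wildtype replicate 1 was again the highest library. Its log2 fold change was 0.12 (SE 0.12, adjusted p = 0.655, edgeR). *Tgfbr2* (ENSMUSG00000032440, chromosome 9 from 116084293 to 116175360, minus strand), the type II receptor, had 63.3, 70.3 and 71.1 CPM under the wildtype label and 72.5, 72.8 and 78.0 CPM under the mutant label. These values did not overlap, but the gap between the labels was small, and the log2 fold change of *Tgfbr2* was 0.13 (SE 0.093, interval -0.078 to 0.33, adjusted p = 0.527, edgeR).

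*Acvrl1* (ENSMUSG00000000530, chromosome 15 from 101128522 to 101145336, plus strand), the type I receptor of endothelium, had 11.2, 13.1 and 14.4 CPM under the wildtype label and 15.2, 16.6 and 17.3 CPM under the mutant label. Every mutant-labelled library was above every wildtype-labelled one. The log2 fold change of *Acvrl1* was 0.35 (SE 0.13, interval 0.062 to 0.63, unadjusted p = 0.0213, adjusted p = 0.249, edgeR), a ratio of 1.27. After the GC and length correction it was 0.22 (unadjusted p = 0.101, adjusted p = 0.399, edgeR). The 10 endothelial markers, among them *Pecam1*, *Cdh5* and *Tie1*, were centred on a log2 fold change of -0.068 (median), with 9 lower and 1 higher, and edgeR called 0 of the 10. Relative to their mean in the same library, a measure chosen after the values were seen and not tested, *Acvrl1* was at -2.60, -2.78 and -2.74 log2 units under the wildtype label and at -2.29, -2.13 and -2.33 under the mutant label. The difference of the means was 0.45 log2 units, larger than that of *Acvrl1* alone.

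The coreceptors behaved unlike each other. *Tgfbr3* (ENSMUSG00000029287, chromosome 5 from 107106570 to 107289629, minus strand) had 25.4, 32.1 and 56.4 CPM under the wildtype label and 19.1, 13.6 and 28.4 CPM under the mutant label. Mutant replicate 3 was above wildtype replicate 1, so the labels overlapped, and the highest library had 4.14 times the lowest, the widest range of the 9 genes. The log2 fold change of *Tgfbr3* was -0.90 (SE 0.30, interval -1.56 to -0.23, unadjusted p = 0.0127, adjusted p = 0.227, edgeR), a ratio of 0.538. *Eng* (ENSMUSG00000026814, chromosome 2 from 32646595 to 32682669, plus strand) had 161, 213 and 232 CPM under the wildtype label and 208, 189 and 218 CPM under the mutant label. The libraries of the labels were mixed in order. For *Eng* the log2 fold change was 0.023 (SE 0.14, adjusted p = 0.953, edgeR), and the interval from -0.28 to 0.32 on the log2 scale leaves ratios from 0.826 to 1.25. Relative to the endothelial marker mean of the same library, *Eng* was at 1.19 to 1.23 log2 units under the wildtype label and at 1.29 to 1.44 under the mutant label, also not tested.

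Leaving out 1 library changed how many of these genes were called. Without wildtype replicate 1, 4 of the 9 were called with edgeR, where 9.45% of 27450 genes were. *Tgfb2* then had a log2 fold change of 0.72 (adjusted p = 0.0181), *Tgfb3* of 0.85 (adjusted p = 0.0317), *Ltbp1* of 0.56 (adjusted p = 0.0212) and *Tgfbr3* of -1.12 (adjusted p = 0.0463), all from edgeR's test. *Acvrl1* was at 0.25 in that fit and *Eng* at -0.12, so that 7 of the 9 were higher. The labels then did not overlap in 8 of the 9 genes, all except *Eng*, a choice made after the data were seen, against 42.7% of all genes. Without any 1 of the other libraries, 0 of the 9 were called, and 1 to 3 of them had an unadjusted p under 0.05. The share of all genes with such a p was not taken in these fits. Without wildtype replicate 3 the differences were smaller, with log2 fold changes of 0.089 for *Tgfb2*, 0.31 for *Tgfb3*, 0.14 for *Ltbp1* and -0.50 for *Tgfbr3*. Those of *Tgfb2* and *Ltbp1* were also smaller without wildtype replicate 2 (0.18 and 0.16).

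**Figure D3:**
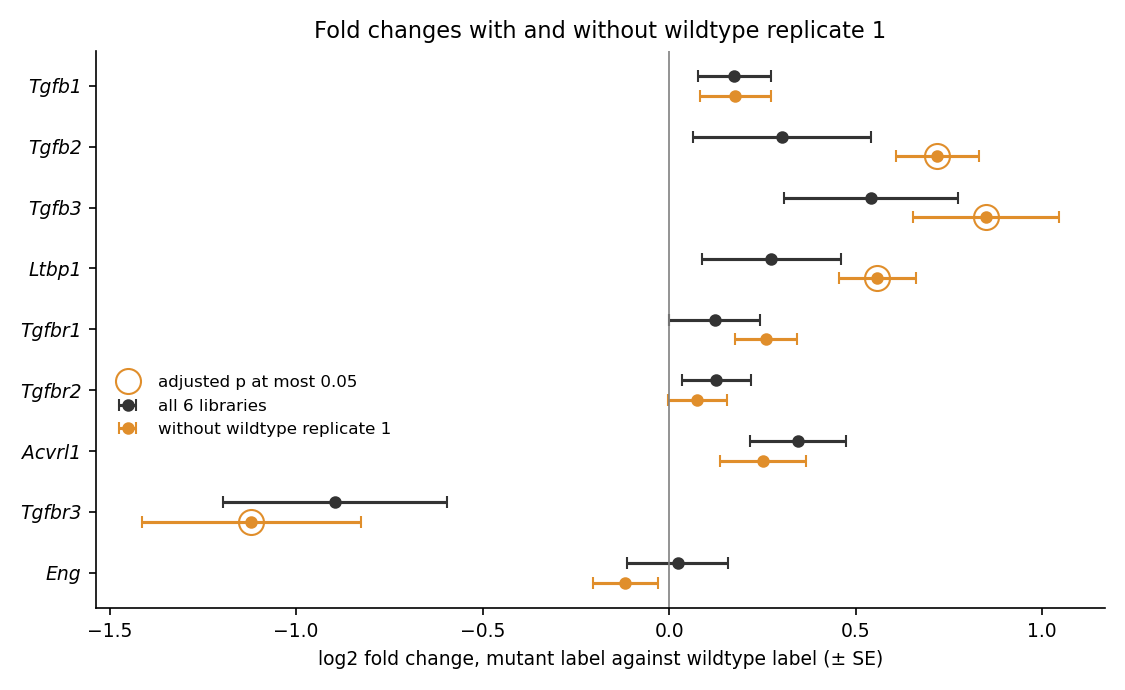
Log2 fold changes of the 9 genes (horizontal axis, mutant label against wildtype label, bars ± SE of edgeR's fit) with all 6 libraries (black) and without wildtype replicate 1 (orange), rings marking an adjusted p of at most 0.05. *Tgfb2*, *Tgfb3*, *Ltbp1* and *Tgfbr3* are farther from 0 and ringed without that library, and *Eng* changes side.

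The library patterns were compared with each other as log2 CPM centred on the mean of the 6 libraries, with the root mean square (RMS) difference over the libraries as the measure of likeness. These are descriptions over 6 libraries that share their tissue and depth, and they carry no test. Among the 9 genes the closest pairs were *Tgfb1* and *Tgfbr2* (RMS difference 0.11 log2 units), which both varied little, and *Tgfb2* and *Ltbp1* (0.122), and the most distant pair was *Tgfb3* and *Tgfbr3* (1.08). *Tgfb3* lay 0.0861 from the mean of the mesenchymal markers and *Tgfb2* 0.169, each nearer to it than to any of the other 8 marker lists. *Ltbp1* was nearest to the markers of neural crest and glia (0.153, with a summed level of 21.9 to 39.8 CPM over the 6 libraries), followed by the mesenchymal ones (0.231). *Tgfbr3* was nearest to the myocardial markers (0.184), and *Eng* to the endothelial markers (0.0871). *Acvrl1* was not close to any list. Its smallest difference, from the smooth muscle list (0.196), was hardly below its own RMS variation (0.205). The lists of neural crest and glia (0.236) and of endothelium (0.239) came next.

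The marker lists themselves differed between the labels. All 10 mesenchymal markers were higher under the mutant label, with a summed level of 7889 to 10084 CPM against 4342 to 8499 CPM under the wildtype label. All 10 myocardial markers (such as *Myl2*, *Tnnt2* and *Actc1*) were lower, with 18671 to 27561 CPM against 27915 to 42289 CPM. All 6 blood markers were lower too (median log2 fold change -0.56), with 3270 to 3403 CPM against 3051 to 6256 CPM. All 4 markers of neural crest and glia that were tested (median 0.50) and all 5 neuronal markers (median 0.17) were higher, the epicardial markers were lower in 6 of 7 and the macrophage markers in 4 of 5. In none of these lists was a marker called with edgeR. An unadjusted p under 0.05 was reached by 8 of 10 myocardial, 7 of 10 mesenchymal and 4 of 6 blood markers, against 16.1% of all genes. The other listed marker of neural crest and glia, *Foxd3*, was not among the genes tested. With the mean of the mesenchymal markers of each library as a covariate, a setting added after the data were seen, the log2 fold changes of *Tgfb2*, *Tgfb3* and *Ltbp1* were -0.31, -0.10 and -0.18. With the mean of the myocardial markers in its place they were -0.076, 0.031 and -0.042, and that of *Tgfbr3* was -0.094. That of *Acvrl1* was 0.48 with the myocardial and 0.57 with the mesenchymal covariate, and a larger value was not particular to *Acvrl1*. *Eng* had 0.25 and 0.36 and *Tgfbr2* 0.21 and 0.24 in the same order, against 0.023 and 0.13 without a covariate. In either fit edgeR called 0 of the 9 genes. Whether the amount of myocardial or mesenchymal tissue in the pools had a part in the differences of these genes was not tested.

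**Figure D4:**
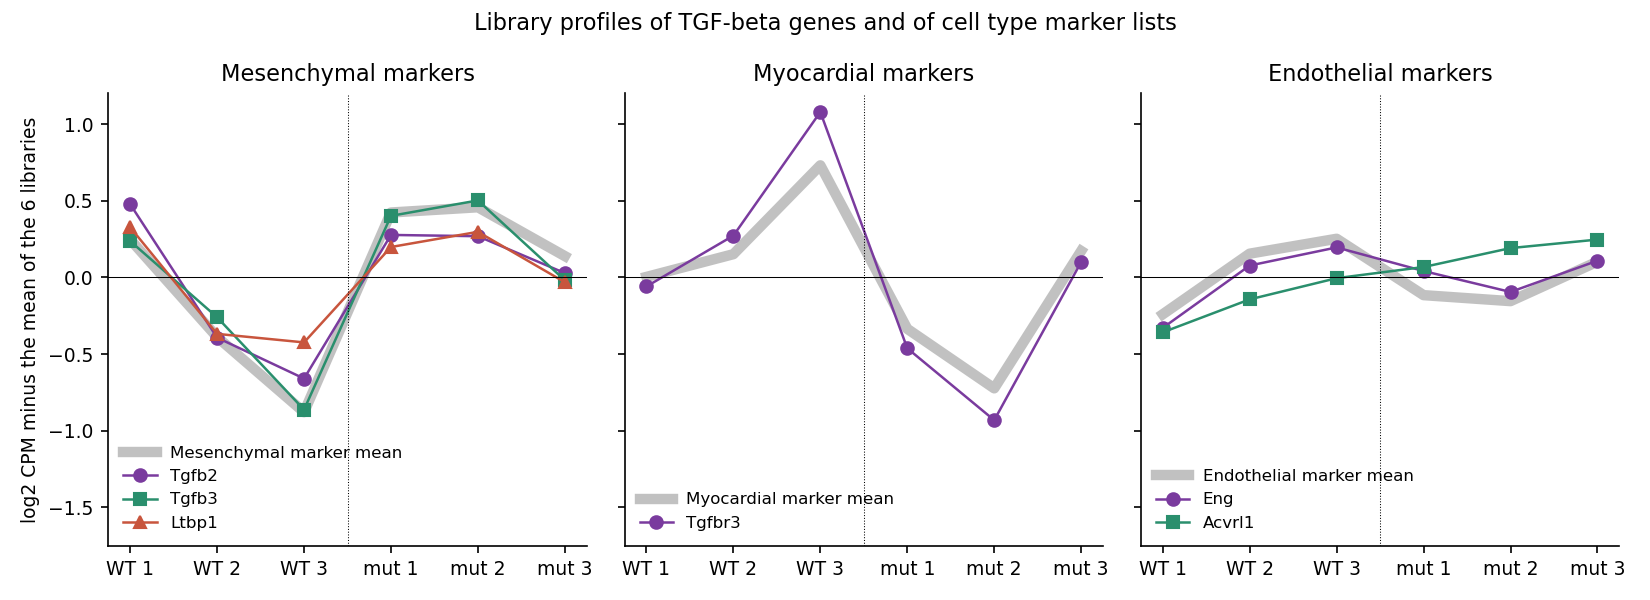
Centred log2 CPM (vertical axis) in the 6 libraries (horizontal axis, WT for the wildtype label, mut for the mutant label) of 6 of the 9 genes beside the mean of the mesenchymal, myocardial or endothelial markers (grey band). *Tgfb2*, *Tgfb3* and *Ltbp1* are high in wildtype replicate 1 like the mesenchymal mean, and *Tgfbr3* moves with the myocardial mean. *Eng* stays closer to the endothelial mean than *Acvrl1*, and both are above it in all 3 mutant-labelled libraries, *Acvrl1* farther.

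Outside the family, the nearest of 11115 protein-coding genes averaging at least 5 CPM were found by the same measure. For *Tgfb3* they were *Tgif1*, a corepressor of Smad-driven transcription (0.0348), and *Tril* (0.0384). *Tgif1* had 28.5, 20.3 and 13.3 CPM under the wildtype label and 32.9, 33.5 and 22.8 CPM under the mutant label. For *Tgfb2* they were the ephrin receptor *Epha7* (0.0565) and the atypical cadherin *Fat1* (0.0694). For *Tgfbr3* they were *Retreg1* (0.0677) and *Smpx*, a gene of striated muscle (0.0861), with 175, 228 and 357 CPM of *Smpx* under the wildtype label and 122, 89.1 and 211 CPM under the mutant label. *Acvrl1* was nearest to *Kank3* (0.0338) and *Serpinb1a* (0.0423), and *Eng* to *Tuft1* (0.0382) and *Gdpd5* (0.0395). The nearest genes of *Ltbp1* were *Rcbtb1* (0.0396) and *Zfp446* (0.048), and those of *Tgfbr1* were *Kif3a* (0.0211) and *Maco1* (0.0212). *Tgfb1* and *Tgfbr2*, whose own variation was small, lay nearest to *Cdc42bpb* (0.0149) and *Nisch* (0.0182) and to *Zfp710* (0.0264) and *Tars2* (0.0285).

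Other genes of the pathway were taken from 4 lists written from general knowledge, with 70 genes of which 69 were tested and *Gdf1* was not found. Of the 69, 52 were higher and 17 lower under the mutant label (63 and 6 when scaled by library size alone, 49 and 20 after the GC and length correction), the median log2 fold change being 0.23 (0.127 after that correction). With edgeR 0 of the 69 passed (smallest adjusted p = 0.181), and 27 had an unadjusted p under 0.05 (26 higher, 1 lower), or 39.1%, against 16.1% of all genes. That count was 20 after the correction. With a single library left out it was 41 for wildtype replicate 1, 14 for wildtype replicate 2, 26 for mutant replicate 3, and 10 for wildtype replicate 3 and for mutant replicates 1 and 2. The share of all genes with such a p was not taken in the corrected fit or with a library left out. Those counts therefore cannot be set against the 16.1%. DESeq2 called 3 of the 69 (*Smad7*, *Snai1* and *Col1a1*), or 4.35%, against 2.66% of all genes, and without wildtype replicate 1 edgeR called 22, or 31.9%, against 9.45%, all of them higher. With all libraries the labels did not overlap in 12 of the 69, a share no larger than the 19.6% of all genes.

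In the extracellular part, the 17 genes of the latent complex, of matrix storage and of activation, 16 were higher (median log2 fold change 0.39). Of these, 11 had an unadjusted p under 0.05, or 64.7% of the list, against 16.1% of all genes. After the GC and length correction 5 of the list had such a p, and the median was 0.26. With 1 library left out the number ranged from 2 (mutant replicate 2) to 13 (wildtype replicate 1). For the corrected and left-out fits the share of all genes was not taken. The largest difference was that of *Ltbp2*, a fibrillin-binding relative of *Ltbp1*. It had 30.8, 16.4 and 8.32 CPM under the wildtype label and 51.9, 56.2 and 40.4 CPM under the mutant label, without overlap (log2 fold change 1.41, SE 0.35, adjusted p = 0.181, edgeR). *Ltbp3*, a latent binding protein that carries TGF-beta, had 196, 143 and 92.6 CPM and 278, 308 and 191 CPM in the same order (log2 fold change 0.85, SE 0.24, adjusted p = 0.196, edgeR). Mutant replicate 3 of *Ltbp3* lay just below wildtype replicate 1, which was the highest of its label for both genes. *Ltbp1* had a smaller log2 fold change than either. Of this list, *Dcn* (decorin) is also 1 of the 10 mesenchymal markers.

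Among the 18 tested receptors, ligands and inhibitors of the neighbouring activin, GDF and endothelial BMP branches, 11 were higher and 7 lower (median log2 fold change 0.075). A share of 11.1%, below the 16.1% of all genes, or 2 of the 18, had an unadjusted p under 0.05. These were *Fst* (follistatin, an activin antagonist), at 3.10, 3.90 and 3.17 CPM under the wildtype label and 5.35, 4.59 and 5.41 CPM under the mutant label, and *Cd109*, a TGF-beta coreceptor that restrains signalling. *Fst* differed by 0.59 on the log2 scale (adjusted p = 0.203, edgeR) and *Cd109* by 0.33 (adjusted p = 0.267, edgeR). *Bmp10*, a ligand of *Acvrl1* made by myocardium, varied widely, with 10.9, 9.92 and 66.0 CPM under the wildtype label and 4.07, 1.55 and 36.1 CPM under the mutant label (log2 fold change -1.05, SE 0.96, adjusted p = 0.627, edgeR). Both labels had their highest value in replicate 3. *Inhbb*, an activin subunit, had 5.24 to 5.66 CPM and 4.57 to 5.20 CPM (log2 fold change -0.15, adjusted p = 0.671, edgeR).

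Of the 16 Smads and Smad regulators, 10 were higher and 6 lower (16 and 0 when scaled by library size alone, 8 and 8 after the GC and length correction), with a median log2 fold change of 0.076, and 4 had an unadjusted p under 0.05, all higher. The leading 2 were brakes on the pathway that are themselves induced by it. *Smad7*, the inhibitory Smad, had 31.3, 27.4 and 22.5 CPM under the wildtype label and 46.9, 45.5 and 34.9 CPM under the mutant label, without overlap (log2 fold change 0.65, SE 0.15, adjusted p = 0.181, edgeR). *Pmepa1*, which withholds Smads from the receptor, had 47.6, 40.8 and 31.3 CPM and 58.1, 62.1 and 48.6 CPM, also without overlap (log2 fold change 0.50, SE 0.15, adjusted p = 0.205, edgeR). The signal carriers *Smad2*, *Smad3* and *Smad4* had log2 fold changes of 0.048, -0.030 and 0.13. The lower genes with the smallest p were *Usp15* (log2 fold change -0.074) and *Ppm1a* (-0.061).

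Of the 18 genes known to respond to TGF-beta, 15 were higher and 3 lower (median log2 fold change 0.42). An unadjusted p under 0.05 was reached by 10 (9 of them higher), or 55.6%, against 16.1% of all genes. After the GC and length correction 9 of the 18 had such a p. With 1 library left out the number ranged from 3 (mutant replicate 1) to 15 (wildtype replicate 1). Here too the share of all genes was not taken for the corrected and left-out fits. *Snai1*, a transcription factor of the endothelial-to-mesenchymal change, had 13.497, 8.14 and 5.45 CPM under the wildtype label and 17.6, 20.97 and 12.7 CPM under the mutant label (log2 fold change 0.91, SE 0.28, adjusted p = 0.213, edgeR). Wildtype replicate 1 of *Snai1* lay within the mutant range. *Col1a1*, a fibrillar collagen, had 930, 882 and 622 CPM and 1251, 1341 and 1010 CPM, without overlap (log2 fold change 0.57, SE 0.16, adjusted p = 0.196, edgeR). The contractile genes *Cnn1* (calponin) and *Acta2* (smooth muscle actin) had negative log2 fold changes, -0.29 for *Cnn1* (adjusted p = 0.26, edgeR) and -0.25 for *Acta2* (adjusted p = 0.384, edgeR), and *Cnn1* did not overlap between the labels. The whole list of 8 smooth muscle markers did not share this direction, with 5 higher and 3 lower, a median of 0.12 and 0 called with edgeR. *Myh11* (smooth muscle myosin heavy chain) had 2.20, 1.69 and 1.94 CPM under the wildtype label and 3.70, 5.15 and 3.16 CPM under the mutant label (log2 fold change 1.04, adjusted p = 0.181, edgeR), and *Lmod1*, *Smtn*, *Mylk* and *Tagln* had log2 fold changes of 0.73, 0.24, 0.15 and 0.085. The third lower marker was *Myocd* (-0.29, unadjusted p = 0.0253, adjusted p = 0.26, edgeR). Of the higher ones, *Myh11*, *Lmod1* and *Tagln* had low counts, at most 8.96 CPM in any library. Exons shared with other genes were not examined for these markers, so their low counts may not reflect low expression. *Cnn1* had at least 256 CPM and *Acta2* at least 1054 CPM. The list is mixed with cell type, since 6 of its 18 genes, *Col1a1*, *Acta2* and *Cnn1* among them, also stand on the mesenchymal or smooth muscle marker lists. With the mesenchymal marker mean as a covariate, 34 of the 69 pathway genes were higher and 35 lower (median log2 fold change -0.0026), and with the myocardial mean 44 were higher and 25 lower (median 0.070). The mesenchymal mean is itself built in part from *Postn*, *Col1a1*, *Col3a1* and *Dcn*, which are among the 69. Both means also differ between the labels, so such a fit cannot separate the label from the markers.

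**Figure D5:**
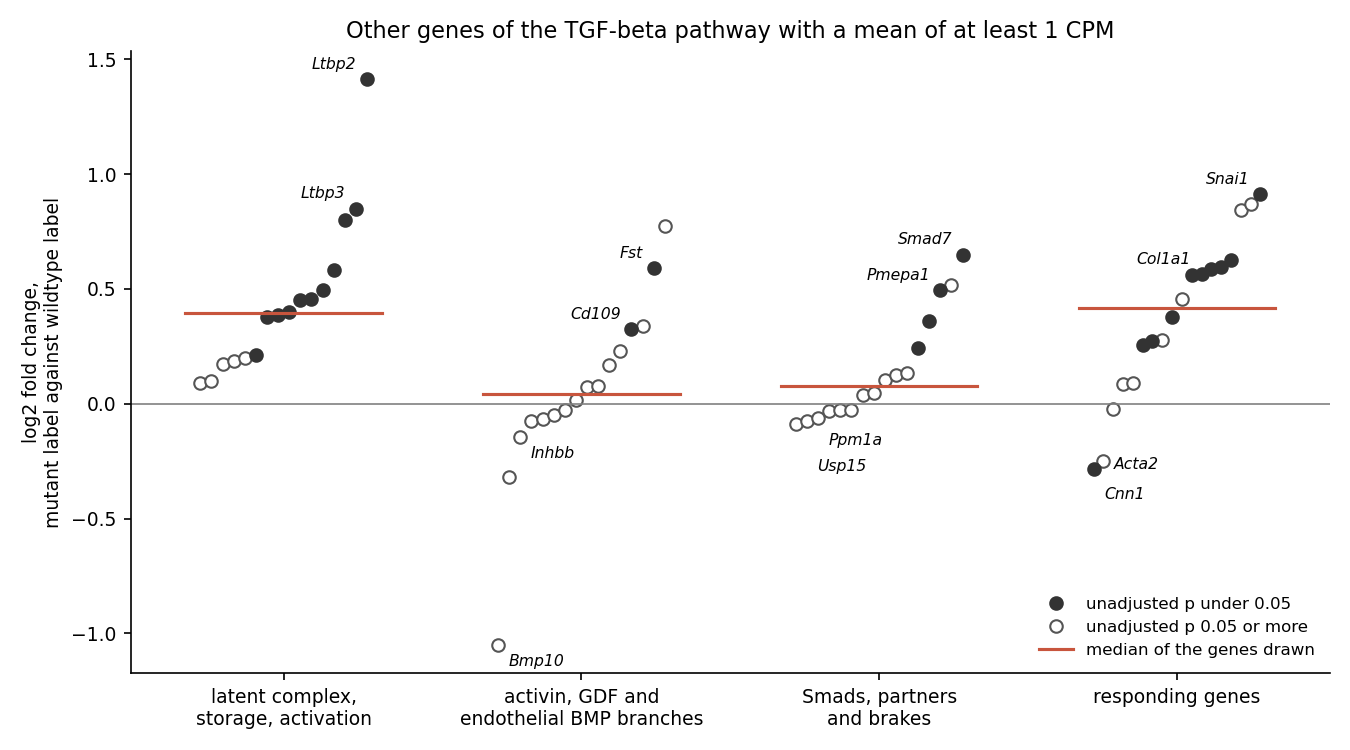
Log2 fold changes (vertical axis, mutant label against wildtype label) of the genes of the 4 pathway lists that averaged at least 1 CPM, 1 point a gene, filled where the unadjusted p of edgeR's test is under 0.05, with the median of the genes drawn in red. Most genes of the extracellular list and of the responding genes are above 0, with *Ltbp2* (1.41) highest, while the receptor and Smad lists center near 0.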

How the data were processed

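RNA-Seq counts of 6 libraries were used, each from 3 pooled OFTs. Per the labels and the study's methods, the authors depleted ribosomal RNA with a stranded kit, aligned paired-end reads to mm10 with TopHat2 2.1.0 and counted exonic reads with GenomicAlignments. The deposited values are whole-number counts per gene, not normalized. The annotation release and the handling of strand and overlapping genes are not given in the sources used here.

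Following the study, 620 genes whose reads summed to 5 or fewer were dropped. The other 28157 were scaled by TMM and compared with the quasi-likelihood test of edgeR 4.0.16 in R 4.3.3. P-values were adjusted by Benjamini-Hochberg over all of them, and an adjusted p of 0.05 or lower made a call. A pseudocount of 0.5 CPM was used on the log2 scale and in the exact permutation test. Exon lengths and positions were taken from GENCODE for mm10 (28723 identifiers matched). Depth was 34729103 to 44387490 counts, and the precision given covers counting and pool-to-pool spread alone. No source says which pools share litters, and p-values measure the spread between these pools.

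The 9 genes, the pathway lists and the marker lists were chosen with earlier results of these data known. Named are all 9 genes, *Notch1* and *Nos3*, for each pathway list the called genes and the 2 with the smallest p in each direction (mean of 1 CPM or more), the 2 nearest genes by library pattern, and markers standing beside a result. *Smad2*, *Smad3*, *Smad4* and *Tagln* were added after their values were seen. Alternatives were DESeq2 1.42.0, limma-voom (limma 3.58.1), other scalings and filters, a replicate block, a GC and length correction, marker covariates and each library left out. The code was tested on simulated counts.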

Additional observations from a re-analysis of the deposited data

How the results depend on the processing

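Of the 9 TGF-beta genes, 0 were called in all settings but 3. The settings that called some were the replicate block (2, *Tgfb3* and *Tgfbr3*), the block with the GC and length correction (2, again *Tgfb3* and *Tgfbr3*) and leaving out wildtype replicate 1 (4), so the count ranged from 0 to 4 with 1 library left out. Of the 69 other pathway genes 0 were called with all libraries, 3 with DESeq2, 25 with the block, 26 with the block and the correction, 1 with the block and wildtype replicates 2 and 3 exchanged, and 0 to 22 with 1 library left out, the 22 without wildtype replicate 1. Over all genes these settings called 6 (all libraries), 749 (DESeq2), 1577 (block), 2289 (block with correction), 83 (exchanged block) and 2593 (without wildtype replicate 1). Same-numbered libraries deviated together with correlations of 0.0962, 0.147 and 0.505, no source says that a number marks a litter or day, and wildtype replicate 1 was closer to mutant replicate 2 (0.371), so the numbers were not taken as pairs. The sign changed for *Tgfb2*, *Ltbp1* and *Tgfbr1* with the myocardial covariate (-0.0756, -0.0416 and -0.0522) and with the mesenchymal covariate, which was added after the data were seen (-0.308, -0.177 and -0.127), for *Tgfb3* with the latter (-0.103), and for *Eng* with the GC and length correction (-0.104), with the block and that correction (-0.0983) and between -0.117 and 0.133 with 1 library left out. The cause was not tested. Accordingly 8 of the 9 genes were higher with all libraries, 7 with the correction, 5 with the myocardial and 4 with the mesenchymal covariate. Scaling by library size alone shifted all genes to a median of 0.11 (log2) and the 9 genes to 0.28. Without wildtype replicate 1 the labels did not overlap in 8 of the 9 genes, chosen after the data were seen. Without gene length only 4 of the 9 genes kept their place in the order of levels. In each setting the difference between the labels in the share of a ligand or receptor stayed near its main value. It moved from that value by less than the SD of both labels combined (1.54 to 4.34 points). From 1 setting to another it could move by more, for *Tgfb1* from -5.36 to -0.488 points (SD 3.51). With 1 library left out the sign of the difference changed for *Tgfb2*, *Tgfbr1* and *Tgfbr2*. With 3 pools a group, differences of the size seen in *Tgfb2*, *Tgfb3* and *Ltbp1* were not separable from the spread under the wildtype label.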
